A study of Arabidopsis thaliana with 12 samples.

Results

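The data describe 6 genes of the non-specific lipid transfer protein family of *Arabidopsis*, LTP1 (AT2G38540), LTP2 (AT2G38530), LTP3 (AT5G59320), LTP4 (AT5G59310), LTP5 (AT3G51600) and LTP6 (AT3G08770), out of the 33601 loci counted. The members were taken by their AGI locus numbers, and the family was singled out because LTP2 was the most counted gene in most WT libraries. The family was thus chosen by the level of LTP2 in WT, and every value of LTP2 that involves WT libraries is given as a description without a test. RNA came from whole 3-day-old Columbia seedlings that germinated after a short white-light pulse and then grew in darkness. The 4 groups were *pifq* dark linc, *pifq* dark, WT dark linc and WT dark, with 3 biological replicates each. *pifq* is the quadruple mutant *pif1 pif3 pif4 pif5*, which lacks the transcription factors of the PIF quartet that maintain dark development, and linc marks medium with 0.5 mM lincomycin, a drug that blocks protein synthesis in plastids and thereby activates retrograde signals (RS) to the nucleus.

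Non-specific lipid transfer proteins are small secreted proteins held together by disulfide bonds around a hydrophobic tunnel that binds a fatty acid or another lipid. They are abundant in epidermal cell walls and are studied for their part in building the cuticle, the waxy layer over aerial organs. LTP1 protein is known from the epidermal cell wall, LTP2 from the cuticle of dark-grown hypocotyls, LTP3 and LTP4 as genes that respond to abscisic acid and drought, and LTP5 from work on pollen tube growth. What LTP6 does is less well described.

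LTP2 and LTP1 are tandem neighbours. In the TAIR10.1 annotation, LTP2 lies at 16128176 to 16129399 of chromosome 2 on the plus strand and LTP1 at 16130290 to 16131240 on the same strand, 890 nt further on. LTP4 (chromosome 5, 23924990 to 23925957, minus strand) and LTP3 (chromosome 5, 23928954 to 23929816, plus strand) lie 2996 nt apart, in opposite orientation. LTP5 (chromosome 3, 19138338 to 19139423) and LTP6 (chromosome 3, 2664069 to 2664888) are both on the minus strand. Each gene model has 2 exons and 1 intron, and the coding sequence is 357 nt long in LTP1, LTP2 and LTP5, 348 nt in LTP3, 342 nt in LTP6 and 339 nt in LTP4. The coding sequences of LTP1 and LTP2 were identical at 82.4% of aligned positions and those of LTP3 and LTP4 at 84.5%, whereas LTP5 and LTP6 were the least alike at 50.3%.

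The ends of the coding sequences are shown because the reads were counted at the 3' end, so that what separates LTP1 from LTP2 there decides whether their counts can be told apart. These are the last 60 coding bases of each member, 5' to 3', read from the TAIR10.1 genome, and capitals mark the bases that differ from LTP2.
LTP1: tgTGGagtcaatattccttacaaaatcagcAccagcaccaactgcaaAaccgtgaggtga
LTP2: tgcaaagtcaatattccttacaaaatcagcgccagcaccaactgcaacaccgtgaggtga
LTP3: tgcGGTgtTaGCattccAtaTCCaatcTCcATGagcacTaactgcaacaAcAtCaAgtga
LTP4: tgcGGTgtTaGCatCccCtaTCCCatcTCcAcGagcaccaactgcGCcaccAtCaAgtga
LTP5: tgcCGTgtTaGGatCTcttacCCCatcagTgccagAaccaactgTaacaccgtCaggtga
LTP6: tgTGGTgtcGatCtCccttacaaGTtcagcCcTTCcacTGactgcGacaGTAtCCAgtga
LTP1 differs from LTP2 at 5 of these 60 bases, LTP5 at 15, LTP3 at 20, LTP4 at 21 and LTP6 at 22. The similarity of the pair ends with the coding sequence. In the TAIR10.1 models, the last 500 nt of the transcript hold 49 coding nt in LTP2 and 153 in LTP1. The rest is 3' untranslated sequence, and the 2 windows were identical at 51.2% of aligned positions. In all 6 members, none of the 451 stretches of 50 nt in this window matched that of another locus with up to 1 mismatch. Over the full transcripts, 2 such stretches of LTP1 matched LTP2. The authors counted the last 500 nt of TAIR10 transcripts, whose ends may differ, so their windows may hold other sequence. The read length is not given in the sources used here, so the stretch of 50 nt is a choice of this work.

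**Figure D1:**
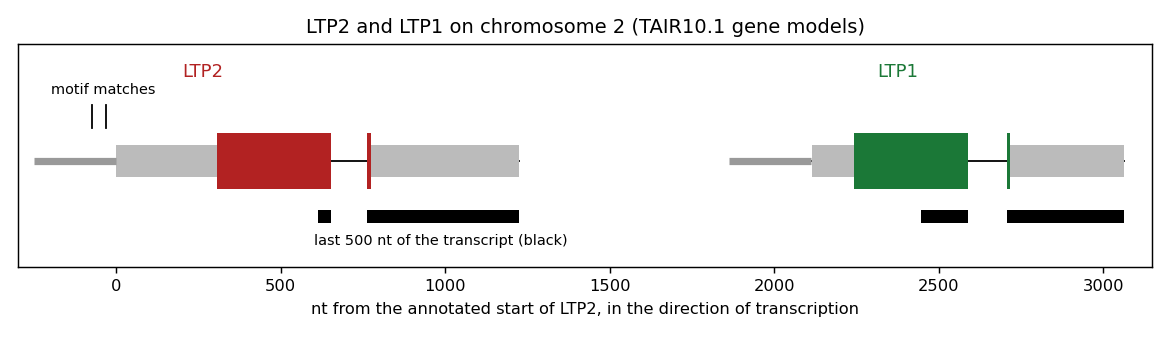
Gene models of LTP2 and LTP1, drawn to scale in nt from the annotated start of LTP2. Coloured boxes are coding sequence, grey boxes untranslated exon parts, thin lines introns, thick grey lines the 250 bases before each start, ticks the motif matches and black bars the last 500 nt of each transcript. The 2 black bars of LTP2 cover mostly untranslated sequence.

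The 250 bases before the annotated start are shown for LTP2 and LTP1 because these neighbours differed in opposite directions between *pifq* and WT (plus strand, TAIR10.1). Capitals mark matches to 6 motifs that were searched on both strands: CACGTG, the G-box bound by PIFs, CACATG, the other PIF-binding E-box, ACGTG, the core of abscisic acid response elements, which every CACGTG also contains, CCAATC, an element of GLK target promoters, and TAAATGCA and TAAATGTA, the forms of the L1 box of epidermal genes.
LTP2, chr2:16127926-16128175: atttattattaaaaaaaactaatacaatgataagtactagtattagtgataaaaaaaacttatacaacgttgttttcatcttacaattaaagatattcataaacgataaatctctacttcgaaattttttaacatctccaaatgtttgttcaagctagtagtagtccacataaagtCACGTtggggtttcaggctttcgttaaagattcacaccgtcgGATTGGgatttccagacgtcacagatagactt
LTP1, chr2:16130040-16130289: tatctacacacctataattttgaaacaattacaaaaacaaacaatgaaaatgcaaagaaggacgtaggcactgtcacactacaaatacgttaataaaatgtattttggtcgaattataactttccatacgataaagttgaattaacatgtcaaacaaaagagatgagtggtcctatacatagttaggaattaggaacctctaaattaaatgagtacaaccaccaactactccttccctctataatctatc
The LTP2 promoter holds ACGTG, on the reverse strand, from base 74 before the start and CCAATC, also on the reverse strand, from base 32 before the start. No match was found in the LTP1 promoter or in those of the other 4 members. Of 27443 promoters of this length, 22.9% hold ACGTG, 10.2% CCAATC, 11.1% CACATG, 6.49% CACGTG, 3.0% TAAATGTA and 1.57% TAAATGCA. A match is a run of letters and not a bound site.

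Library totals were between 11495950 and 17612505 counts. Levels are given as normalized CPM, counts per library total (CPM) after TMM scaling, and as mean ± SD with n = 3 where a group is summarised. The TMM factors were 0.81 to 0.87 in *pifq* dark and 1.00 to 1.11 in the other groups. The genotype labels held for PIF1, PIF3 and PIF5, with log2 fold changes of -4.82, -6.04 and -3.75 in *pifq* dark relative to WT dark, whereas PIF4 reads were still counted in *pifq*, with a log2 fold change of 0.62 in the same comparison. In whole seedlings, fewer cells of a type and less RNA per cell cannot be told apart. In the TAIR10.1 models every member has a transcript longer than 500 nt. If the authors' transcripts are as long, all 6 were counted over 500 nt and their levels can be set side by side.

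LTP2 stood far above the other members in every library. Its normalized CPM was 7040.0, 6654 and 5816 in the *pifq* dark linc libraries, 3063, 3154 and 2703 in *pifq* dark, 21289, 23269 and 22376 in WT dark linc, and 19031, 18509.7 and 20952 in WT dark. The 6 *pifq* libraries all lay below the 6 WT libraries, and within each genotype the lincomycin libraries lay above the untreated ones. As a share of all counts, LTP2 took 0.672% ± 0.028 in *pifq* dark linc, 0.247% ± 0.012 in *pifq* dark, 2.38% ± 0.065 in WT dark linc and 2.11% ± 0.186 in WT dark (SD, n = 3 each). It ranked first among all loci in 5 of the 6 WT libraries and second in WT dark replicate 2, where AT3G26520, the tonoplast water channel gene TIP2, had 295458 counts against 244480 for LTP2. In *pifq* dark linc its rank was 4 or 5, and in *pifq* dark it was 37 to 42. CAB1, which encodes a light-harvesting chlorophyll-binding protein, was the most counted locus in all 3 *pifq* dark libraries.

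LTP1, the neighbour of LTP2, showed the opposite order of genotypes. Its normalized CPM was 530.0, 471 and 510.0 in *pifq* dark linc, 457, 437 and 355 in *pifq* dark, 48.8, 44.0 and 57.3 in WT dark linc, and 39.2, 52.9 and 38.8 in WT dark. Every *pifq* library lay above every WT library, and the 2 WT groups overlapped. Among all loci LTP1 ranked between 264 and 475 in *pifq* libraries and between 2910 and 4004 in WT libraries.

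LTP5 was also higher in *pifq*, by less. Its normalized CPM was 537, 575 and 563 in *pifq* dark linc, 842, 854 and 919 in *pifq* dark, 311, 310.3 and 343 in WT dark linc, and 327, 320.3 and 389.8 in WT dark. The 3 *pifq* dark libraries were the highest, those of *pifq* dark linc followed without overlap, and the 2 WT groups overlapped below both.

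LTP6 was low throughout. Its normalized CPM was 18.5, 29.1 and 25.0 in *pifq* dark linc, 14.6, 15.3 and 22.2 in *pifq* dark, 5.66, 4.56 and 5.52 in WT dark linc, and 7.12, 5.98 and 8.41 in WT dark. The 2 *pifq* groups overlapped and both lay above WT, and the WT dark linc libraries lay just below those of WT dark.

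LTP3 and LTP4, the members known from abscisic acid and drought responses, were close to undetected in these seedlings. LTP3 had 3, 9 and 11 counts in *pifq* dark linc, 10, 12 and 17 in *pifq* dark, 7, 9 and 19 in WT dark linc and 12, 4 and 19 in WT dark. LTP4 had 0 counts in all 6 *pifq* libraries, 0, 0 and 2 in WT dark linc and 0, 0 and 1 in WT dark. A count of 0 allows up to 3 counts, which is 0.194 to 0.261 CPM in the *pifq* libraries, for counting error only. No fold is given for LTP4, and both genes fell below the filter of 5 CPM in at least 2 libraries, so that 4 of the 6 members were tested across genes. With the filter removed, LTP3 had a log2 fold change of 0.67 ± 0.44 (SE) for *pifq* dark relative to WT dark and of -0.89 ± 0.47 for *pifq* dark linc relative to *pifq* dark, with adjusted p = 0.286 and 0.232 by edgeR's quasi-likelihood test. A difference between groups was not detectable at this depth.

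To ask what the loss of the PIFs did to the family in darkness, *pifq* dark was compared with WT dark. LTP1 rose 9.51-fold in *pifq* dark (416.2 ± 54.3 against 43.6 ± 8.04 normalized CPM), LTP5 rose 2.51-fold (871.5 ± 41.4 against 345.8 ± 38.3) and LTP6 rose 2.39-fold (17.4 ± 4.18 against 7.17 ± 1.22). Their log2 fold changes were 3.25 ± 0.17, 1.33 ± 0.14 and 1.26 ± 0.19 (SE), with adjusted p = 1.07e-07, 1.6e-05 and 0.000347 by the quasi-likelihood test of edgeR after Benjamini-Hochberg adjustment. LTP2 was lower, at 2973 ± 239 normalized CPM in *pifq* dark and 19497 ± 1286 in WT dark. Its log2 fold change of -2.72 ± 0.17 is given without a test. Thus, of the 5 members other than LTP2, 3 were tested and all 3 were higher and SSTF genes (a change of 2-fold or more and an adjusted p up to 0.01). Of all 13456 genes tested, 12.8% were SSTF in either direction and 6.6% were SSTF and higher. SS genes (adjusted p up to 0.05) made up 41% of all genes tested in this comparison, 21% higher and 20% lower. The change of LTP1 was at the 99.47 percentile of all log2 fold changes, and those of LTP5 and LTP6 at the 95.76 and 95.3 percentiles. The median of all genes was 0.00. When counts were scaled to library totals without TMM this median became -0.38 and 16.6% of SS genes were higher instead of 51.3%. LTP1, LTP5 and LTP6 still rose, by 2.87, 0.95 and 0.88 on the log2 scale, so LTP5 and LTP6 were then under 2-fold and not SSTF.

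The makeup of the family by genotype is given without a test, since LTP2 dominates it. The 6 members together took 0.785% ± 0.022 of all counts in *pifq* dark linc, 0.356% ± 0.009 in *pifq* dark, 2.42% ± 0.064 in WT dark linc and 2.16% ± 0.191 in WT dark. LTP2 made up 84.1 to 86.6% of their counts in *pifq* dark linc, 67.6 to 70.7% in *pifq* dark, 98.2 to 98.5% in WT dark linc and 97.95 to 98.07% in WT dark. Without LTP2 the order of the sums turned round, with 1075 to 1099 normalized CPM in *pifq* dark linc, 1297 to 1314 in *pifq* dark, 359.5 to 407 in WT dark linc and 374 to 438 in WT dark. LTP5 was the largest of the remaining members and made up 19.1 to 23.0% of the family's counts in *pifq* dark, against 1.69 to 1.82% in WT dark.

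Because LTP1 and LTP2 are alike in their coding sequences, their counts were also set against each other. Per 100 LTP2 counts there were 7.08 to 8.77 LTP1 counts in *pifq* dark linc, 13.1 to 14.9 in *pifq* dark, 0.189 to 0.256 in WT dark linc and 0.185 to 0.286 in WT dark. In absolute terms LTP1 had 6498 to 6981 counts in *pifq* dark linc and 3951 to 5718 in *pifq* dark, against 608 to 1050 in WT dark linc and 699 to 755 in WT dark. LTP1 counts were thus higher in the genotype in which LTP2 counts were lower. Whether part of the low LTP1 counts in WT are reads of LTP2 was not tested.

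**Figure D2:**
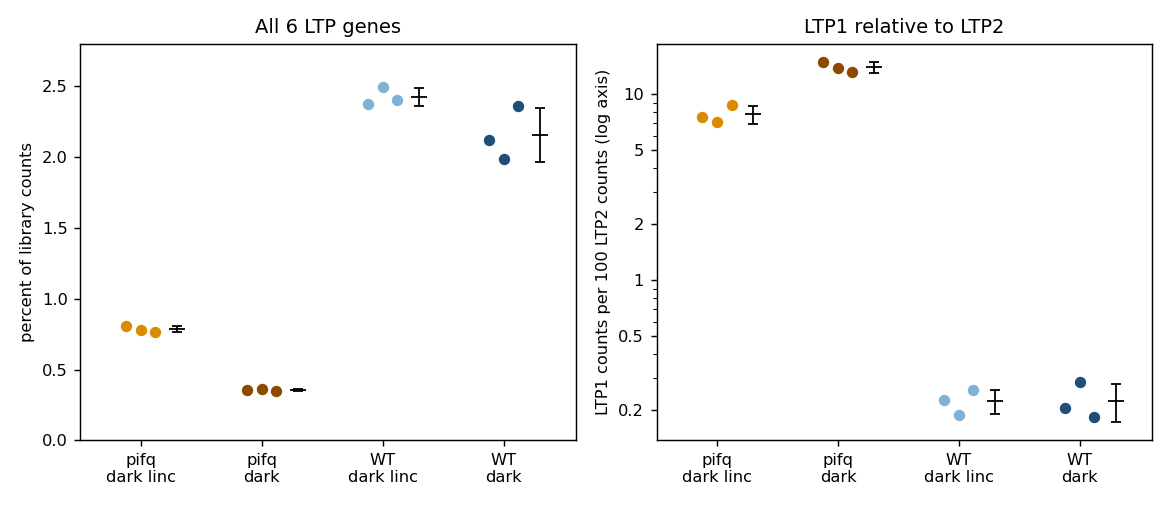
Share of all library counts taken by the 6 members (left, percent, linear axis) and LTP1 counts per 100 LTP2 counts (right, log axis), by library (points) with mean ± SD of each group of 3. The share is 1.99 to 2.50% in WT libraries and 0.348 to 0.809% in *pifq* libraries, and the ratio is below 0.29 in WT and above 7.0 in *pifq*.

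Lincomycin in WT seedlings asked whether retrograde signals alter the family when the PIFs are present. None of LTP1, LTP5 and LTP6 changed by the test, against 6.11% of all 13455 genes tested, 3.03% higher and 3.08% lower. LTP1 had a log2 fold change of 0.19 ± 0.15 (SE; 95% interval -0.10 to 0.48; edgeR adjusted p = 0.497), with 50.04 ± 6.75 normalized CPM in WT dark linc and 43.6 ± 8.04 in WT dark. LTP5 had -0.12 ± 0.13 (interval -0.36 to 0.13; edgeR adjusted p = 0.626). LTP6 had -0.47 ± 0.18 (interval -0.82 to -0.12; edgeR adjusted p = 0.145, unadjusted p = 0.0198), with all 3 WT dark linc libraries below the WT dark libraries, and it passed the threshold only when WT dark replicate 2 was left out (adjusted p = 0.0289), where 20.2% of all genes tested were SS. LTP2 had 22312 ± 992 normalized CPM in WT dark linc and 19497 ± 1286 in WT dark, and the log2 fold change was 0.18 ± 0.13.

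In *pifq* seedlings lincomycin moved 2 members, in opposite directions. This is the only comparison in which LTP2 could be tested, since it uses no WT library. LTP2 rose 2.17-fold, to 6503 ± 626 normalized CPM in *pifq* dark linc against 2973 ± 239 in *pifq* dark. The log2 fold change was 1.12 ± 0.15 (SE) with an edgeR adjusted p of 0.000202, and all 3 treated libraries were above the untreated ones. LTP5 fell by 0.66 ± 0.12 on the log2 scale (558.3 ± 19.2 against 871.5 ± 41.4; edgeR adjusted p = 0.00216), again without overlap. LTP1 had 503.6 ± 30.1 in *pifq* dark linc and 416.2 ± 54.3 in *pifq* dark, which gave a log2 fold change of 0.26 ± 0.14 (95% interval -0.003 to 0.53; edgeR adjusted p = 0.185). LTP6 had 24.2 ± 5.31 and 17.4 ± 4.18 in these 2 groups, which gave a log2 fold change of 0.47 ± 0.19 (interval 0.09 to 0.85; edgeR adjusted p = 0.0992). Thus 2 of the 4 members tested were SS, 1 higher and 1 lower, against 23.2% of all 13142 genes tested (9.68% higher and 13.5% lower). LTP2 was SSTF, as were 5.93% of genes, with 1.39% of genes SSTF and higher.

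Same-numbered samples deviated together in every pair of this last comparison. With the replicate block LTP1 (log2 fold change 0.27, adjusted p = 0.0244) and LTP6 (0.47, adjusted p = 0.00552) rose too. Thus 4 members were SS by edgeR, against 41.8% of all genes tested in that fit. The same 4 members were SS with library totals in place of TMM, where the median of all genes was 0.33 and 86.0% of SS genes were higher instead of 41.7%, and where 46.8% of all genes tested were SS. With those totals LTP1 had a log2 fold change of 0.60, LTP2 1.45, LTP5 -0.32 and LTP6 0.80. LTP6 also passed the threshold without *pifq* dark replicate 3 (0.68, adjusted p = 0.0068) and without *pifq* dark linc replicate 1 (0.63, adjusted p = 0.0466), where 22.3% and 16.3% of genes were SS. LTP2 and LTP5 were SS in the same direction in all 13 alternatives.

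The levels of *pifq* dark linc can be set against both WT groups. Relative to WT dark linc, LTP1 was higher by 3.32 ± 0.14, LTP6 by 2.19 ± 0.17 and LTP5 by 0.79 ± 0.12 on the log2 scale (SE), with edgeR adjusted p = 6.24e-14, 1.43e-09 and 2.8e-05, and LTP2 had -1.78 ± 0.16 without a test. These 3 members were SS, all higher, against 35.9% of the 13557 genes tested in either direction and 17.4% higher. LTP1 and LTP6 were also SSTF, against 3.75% of genes that were SSTF and higher. Relative to WT dark, LTP1 was higher by 3.54 ± 0.16, LTP6 by 1.75 ± 0.18 and LTP5 by 0.70 ± 0.13, with edgeR adjusted p = 1.55e-09, 4.22e-06 and 0.000595, and LTP2 had -1.58 ± 0.18. The same 3 members were SS here, all higher, against 48.2% of the 13791 genes tested in either direction and 23.9% higher. These comparisons share libraries with those above. On the linear scale, with WT dark as 100%, LTP2 was at 33.4% in *pifq* dark linc and at 15.3% in *pifq* dark, and LTP5 was at 161% in *pifq* dark linc and at 252% in *pifq* dark. For LTP1 the same values were 1154% and 954%, and for LTP6 337% and 242%. These group means were farther from WT dark with lincomycin than without it. In the main fit neither gene's change with lincomycin in *pifq* passed the threshold (edgeR adjusted p = 0.185 and 0.0992).

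The interaction asked whether the response to lincomycin differed between *pifq* and WT. The log2 difference of the responses, *pifq* minus WT, was 0.07 ± 0.20 (SE) for LTP1 (95% interval -0.33 to 0.47), -0.54 ± 0.16 for LTP5 and 0.94 ± 0.28 for LTP6, and edgeR's adjusted p were 0.932, 0.0728 and 0.0639. None of the 3 passed the threshold, which 4.98% of the 14040 genes tested did. LTP2 had a difference of 0.93 ± 0.20, without a test since it uses WT libraries. LTP5 and LTP6 were near the threshold, with unadjusted p = 0.00426 and 0.00354, and their calls depended on the analysis. LTP6 passed with DESeq2 (adjusted p = 0.024), with the replicate block (0.0215), with library totals (0.016), with no filter on low counts (0.0148), and when WT dark replicate 2 (0.0347), *pifq* dark replicate 3 (0.0116) or *pifq* dark linc replicate 1 (0.0266) was left out. LTP5 passed with DESeq2 (adjusted p = 0.00994), with the block (0.0396) and when WT dark replicate 3 was left out (0.048). Of all genes tested, 5.93% passed with DESeq2, 6.87% with the block, 13.3% with library totals, 3.6% with no filter and 3.5 to 5.55% with 1 of these libraries left out. The sign of LTP1's difference turned in 3 of 18 alternatives.

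**Figure D3:**
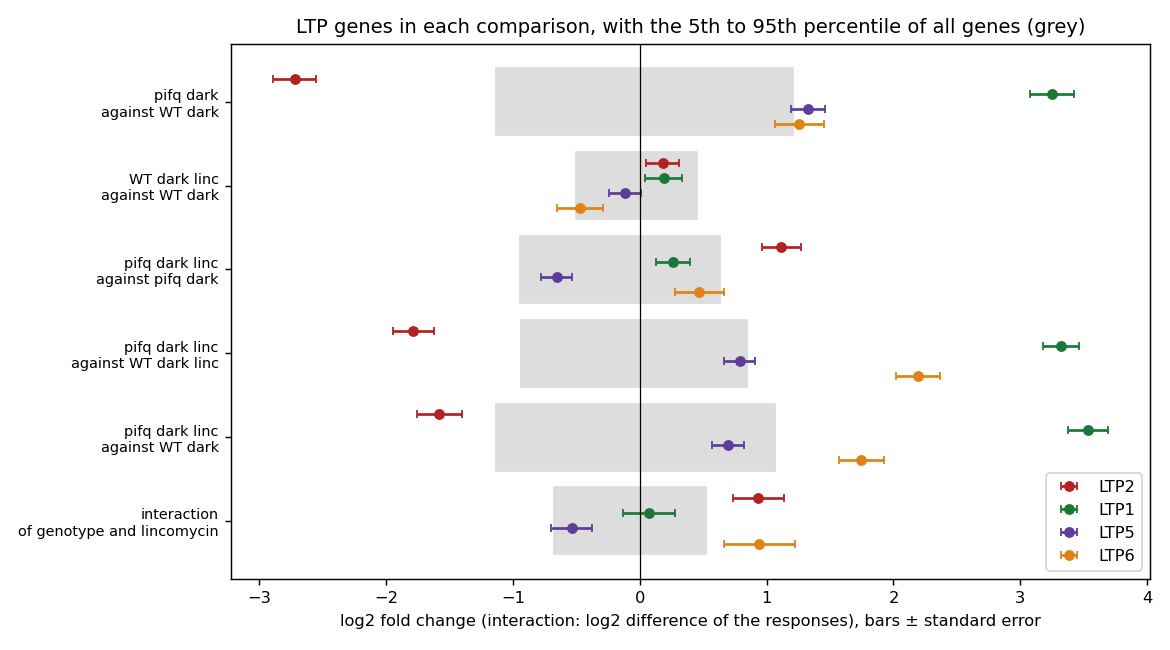
Log2 fold changes (interaction: log2 difference of the responses) of LTP2, LTP1, LTP5 and LTP6 in each comparison, with bars of 1 standard error and, in grey, the 5th to 95th percentile of all genes tested. In *pifq* dark against WT dark, LTP2 lies at -2.72 and LTP1 at 3.25, on opposite sides of the grey range of -1.13 to 1.21.

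The profiles of the members across the 12 libraries were compared by the root mean square difference of log2 levels, each gene centred on its own mean (log2 of normalized CPM + 0.5). LTP5 and LTP6 were the closest pair at 0.53, LTP1 and LTP6 differed by 0.91 and LTP1 and LTP5 by 1.18. LTP2 differed from LTP5 by 1.78, from LTP6 by 1.99 and from LTP1, its tandem neighbour, by 2.79. By the same measure, the 3 other loci closest to LTP2 were MSRB7 (AT4G21830, 0.14), which encodes a methionine sulfoxide reductase, GH9B13 (AT4G02290, 0.18), a glycosyl hydrolase, and TBL41 (AT3G14850, 0.19). MSRB7 averaged 35.0 normalized CPM in *pifq* dark linc, 20.3 in *pifq* dark, 133.7 in WT dark linc and 127.6 in WT dark. Those closest to LTP1 were ECS1 (AT1G31580, 0.25), AT2G27402 (0.30) and AT1G29660 (0.33). ECS1 averaged 65.0, 40.9, 6.09 and 4.45 normalized CPM in the same order of groups.

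LTP5 had the closest neighbours of all 4 members, with ISPF (AT1G63970, 0.12), of the plastid isoprenoid pathway, FAB1 (AT1G74960, 0.12), a plastid enzyme of fatty acid synthesis, and UPP (AT3G53900, 0.13), a uracil phosphoribosyltransferase. ISPF averaged 58.6 normalized CPM in *pifq* dark linc, 94.3 in *pifq* dark, 38.3 in WT dark linc and 41.4 in WT dark. LTP6 was closest to AT5G56120 (0.26), AT5G57790 (0.28) and ATLP-1 (AT1G18250, 0.28), whose group means were between 2.05 and 13.7 normalized CPM. These distances describe the 12 libraries, which differ mostly by genotype.

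On chromosome 2, 3 other genes around the LTP2 and LTP1 pair were tested in *pifq* dark relative to WT dark. Of them 1 was SS, against 41% of all genes tested in this comparison. AT2G38500, upstream of LTP2, averaged 4.12 normalized CPM in *pifq* dark and 14.8 in WT dark, and it fell by 1.86 on the log2 scale (edgeR adjusted p = 1.67e-05). This gene was below the filter in *pifq* dark linc against *pifq* dark. It was tested against WT dark through WT libraries, where it was higher, so the filter favoured a fall. Downstream of LTP1, AT2G38550 had a log2 fold change of 0.22 (adjusted p = 0.371) and TFIIS (AT2G38560) of 0.41 (adjusted p = 0.15) by the same test.

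Other genes for lipid transfer and related proteins were examined beside the members. Of 11 such genes, 6 passed the filter, and in *pifq* dark relative to WT dark 3 rose and 1 fell. Of all genes tested there, 21% were SS and higher and 20% SS and lower. The median log2 fold change of the 6 was 0.34 against 0.00 over all genes. LTP7 rose by 1.75 ± 0.12 (SE), with 172.3, 170.5 and 157.7 normalized CPM in *pifq* dark against 50.6, 46.9 and 50.4 in WT dark, and its edgeR adjusted p was 5.11e-07. DIR1, known for long-distance signalling in systemic acquired resistance, rose by 1.70 ± 0.13 (edgeR adjusted p = 1.29e-06). AT5G01870 rose by 0.84 ± 0.16 (edgeR adjusted p = 0.00138). AZI1, a hybrid proline-rich protein gene of the same resistance pathway, fell by 3.09 ± 0.14 (edgeR adjusted p = 3.06e-08), with 27.5, 33.6 and 30.3 normalized CPM in *pifq* dark against 268.9, 235.1 and 273.0 in WT dark. LTPG1 and LTPG2, which encode lipid transfer proteins anchored to the plasma membrane, had -0.29 and -0.16 (edgeR adjusted p = 0.1 and 0.391).

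With lincomycin in *pifq*, DIR1 rose by 0.56 ± 0.14 (edgeR adjusted p = 0.0101) and AT5G01870 fell by 0.84 ± 0.17 (adjusted p = 0.00308), and the other 4 did not pass. SS genes made up 23.2% of all genes tested with lincomycin in *pifq* and 6.11% in WT. In WT, DIR1 fell by 0.62 ± 0.12 with lincomycin (edgeR adjusted p = 0.00546) and none of the other 5 passed. Its levels were 296.7, 391.4 and 302.0 normalized CPM in *pifq* dark linc, 226.5, 211.3 and 228.0 in *pifq* dark, 41.6, 46.3 and 45.6 in WT dark linc, and 61.6, 67.1 and 75.3 in WT dark. DIR1 was the only one of the 6 with an interaction past the threshold, at a log2 difference of 1.18 ± 0.18 (edgeR adjusted p = 0.000475). Of all genes tested, 4.98% passed it.

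The cuticle and wax list, for which the family is best known, was mixed. Of its 25 genes 23 were tested, and in *pifq* dark relative to WT dark 2 rose and 9 fell. Of all genes tested there, 21% were SS and higher and 20% SS and lower. The median log2 fold change of the list was -0.17. CER1, needed for the alkanes of cuticular wax, fell by 2.72, with 11.8, 11.6 and 11.8 normalized CPM in *pifq* dark against 79.1, 72.0 and 80.5 in WT dark. WSD1, a wax ester synthase, fell by 2.62, CYP86A4 fell by 2.15 and KCS1, an enzyme of very-long-chain fatty acid synthesis, fell by 1.47 on the log2 scale. WSD1 and CYP86A4 were below the filter in *pifq* dark linc against *pifq* dark. They were tested against WT dark through WT libraries, where they were higher, so the filter favoured a fall. The 9 that fell include both. With lincomycin in *pifq*, 2 of 21 genes tested rose and 1 fell, against 9.68% higher and 13.5% lower among all genes tested. CER4, the reductase that makes primary alcohols of wax, rose by 1.61 (edgeR adjusted p = 2.21e-05). In WT none of the 23 tested passed with lincomycin, against 6.11% of all genes tested.

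Of 17 genes of the abscisic acid and drought list, 13 were tested and in *pifq* dark relative to WT dark none rose and 9 fell. Of all genes tested there, 21% were SS and higher and 20% SS and lower. The median log2 fold change of the list was -1.06. RD20 fell most among the genes tested, by 7.37 on the log2 scale (edgeR adjusted p = 2.58e-07). ERD10, a dehydrin, fell by 1.73, ABI5, a transcription factor of abscisic acid signalling, by 1.54 and RD29A by 1.48. RD20, ABI5 and NCED3 were below the filter in *pifq* dark linc against *pifq* dark. They were tested against WT dark through WT libraries, where they were higher, so the filter favoured a fall. The 9 that fell and the median of the list include them. KIN1 and KIN2 in this list share 24 of their 451 stretches of 50 nt, so their counts are uncertain. With lincomycin in *pifq*, 1 of 10 tested rose and 1 fell, against 9.68% higher and 13.5% lower among all genes tested. In WT 1 of 14 rose and 1 fell, against 3.03% higher and 3.08% lower.

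Since LTP genes are best known from the epidermis, markers of cell types were read in the same fits. Of all genes tested in *pifq* dark relative to WT dark, 21% were SS and higher and 20% SS and lower. Of 6 epidermis markers, all tested, ATML1 rose (log2 fold change 0.65, edgeR adjusted p = 0.00187) and PDF1 fell (-0.44, edgeR adjusted p = 0.0181) in this comparison. The median of the 6 markers was 0.22. Their summed level was 1128 to 1287 normalized CPM in *pifq* dark linc, 941 to 1057 in *pifq* dark, 945 to 1003 in WT dark linc and 1141 to 1203 in WT dark. In *pifq* dark linc relative to WT dark linc, 4 of the 6 epidermis markers rose and none fell. Their median was 0.43, and 17.4% of all genes tested there were SS and higher. ATML1 rose by 0.64, PDF2 by 0.50, ALE2 by 0.46 and HDG2 by 0.41 (edgeR adjusted p = 0.000132, 0.0029, 0.0231 and 0.0478). With lincomycin none of the 6 passed in either genotype, and the response of PDF1 differed between them (interaction 0.66, edgeR adjusted p = 0.0202). Of all genes tested, 23.2% were SS with lincomycin in *pifq* and 6.11% in WT, and 4.98% passed the interaction. Of 7 root markers 2 were tested and neither passed in *pifq* dark against WT dark, and of 8 vascular markers 7 were tested, of which 2 rose and 1 fell. Of 4 guard cell lineage markers only FAMA was tested, and it rose by 1.95. FAMA was below the filter in WT dark linc against WT dark. It was tested against both WT groups through *pifq* libraries, where it was higher, so the filter favoured a rise. The sum of the 4 guard cell markers was 20.6 to 24.5 normalized CPM in *pifq* dark, against 6.65 to 9.92 in WT dark. With lincomycin in *pifq*, FAMA fell by 0.68 (edgeR adjusted p = 0.00522), and the sum of the 4 guard cell markers was 14.6 normalized CPM in *pifq* dark linc. XCP1, a xylem protease gene of the vascular list, rose by 0.52 in the same comparison (edgeR adjusted p = 0.0136). The response of XCP1 also differed between genotypes (interaction 0.66, edgeR adjusted p = 0.0217). In *pifq* dark linc relative to WT dark linc FAMA rose by 1.54 and 2 of the 7 vascular markers tested rose. None of these markers was at 0 in all libraries of a group. The part of these cell types in the levels of the LTP genes was not tested.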

How the data were processed

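Whole dark-grown seedlings of WT and *pifq*, without or with lincomycin, were sequenced in 12 libraries. The authors captured polyA 3'-end fragments, used Bowtie 0.12.7 to align directional reads to representative TAIR10 transcripts and counted those on the last 500 nt of each transcript, by strand. Deposited were the raw counts per AGI locus, 1 column per library, without normalization. How reads that match several loci were handled is not given in the sources used here. Symbols, gene models and sequences came from RefSeq's TAIR10.1 assembly, whose transcript ends may differ from those the authors used.

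Counts were tested with edgeR 4.0.16 in R 4.3.3 (glmQLFit and glmQLFTest, TMM, Benjamini-Hochberg) on the 2 groups of each comparison (6 libraries). A gene was tested if 2 or more of these had 5 CPM or more, the study's filter. The interaction used all 12. The standard error is the size of the log2 fold change divided by the square root of F. Totals of 11495950 to 17612505 counts make 3 counts equal to 0.170 to 0.261 CPM. The text names all members, the 3 loci with the nearest profile to each, the PIFs, and genes of the lists. The members and lists were chosen with earlier results of these data known. Alternatives were other scalings, DESeq2 1.42.0, no filter, a replicate block, all 12 libraries in the fit and leaving out each library. Same-numbered samples deviated together for *pifq* dark linc and *pifq* dark (correlations of deviations from group means 0.361 to 0.53), but not in every pair of the other comparisons. For WT dark linc and WT dark these correlations were -0.0547 to 0.525 (mean 0.258). For *pifq* dark and WT dark they were -0.228 to 0.483 (mean 0.239).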

Additional observations from a re-analysis of the deposited data

How the results depend on the processing

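LTP1, LTP5 and LTP6 kept their direction and SS calls for *pifq* against WT, with or without lincomycin, under all 13 alternatives. The SSTF calls of LTP5 and LTP6 in *pifq* dark against WT dark did not hold with library totals. Their log2 fold changes were then 0.95 and 0.88, under 2-fold. In *pifq* dark against WT dark their log2 fold changes were 2.87 to 3.42, 0.95 to 1.42 and 0.88 to 1.38, and that of LTP2 -3.10 to -2.65. No value reversed a call. Of 262 tested values of the members under alternatives, 245 gave the same verdict. Same-numbered samples deviated together in every pair only in *pifq* dark linc against *pifq* dark. There the genes called were 3050, against 5496 with the replicate block and 6148 with library totals, and the members called were 2 against 4 with either, and 1867 to 2991 genes and 2 to 3 members with 1 library left out (1867 without *pifq* dark linc replicate 2). In WT dark linc against WT dark 822 genes were called, 2006 with the replicate block, 1699 with no filter and 389 to 2703 with 1 library left out, and 0 members, or 0 to 1 with 1 library left out. In the interaction 699 genes were called, 1864 with library totals and 490 to 777 with 1 library left out. The members called there were 0, against 1 with library totals, 1 with no filter, 2 with DESeq2, 2 with the replicate block and 0 to 1 with 1 library left out. With no filter, SSTF genes were 345 instead of 204 in WT dark linc against WT dark, 1799 instead of 1101 in *pifq* dark linc against WT dark linc and 2737 instead of 1692 against WT dark. The block changed no call of a member elsewhere. LTP3 and LTP4 are limited by depth.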
